A study of Mus musculus with 18 samples.

Results

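The 142 protein-coding genes examined here encode the subunits of potassium channels (94 genes, symbols beginning Kcn), voltage-gated sodium channels (13 genes, Scn), voltage-gated calcium channels (26 genes, Cacna, Cacnb and Cacng) and the chloride channel and transporter family Clcn (9 genes). They were picked by a rule on their symbols from 31665 genes with an exon length above 0. RNA-seq was run on whole quadriceps, 1 library per mouse, in 6 groups. Wild type (WT) animals were of strain C57BL/6J. The dyW animals, of the line B6.129S1(Cg)-Lama2tm1Eeng/J, are labelled as a knock-out of laminin alpha 2 and model the congenital muscular dystrophy caused by LAMA2 mutations. Untreated WT (n = 3) and untreated dyW mice (n = 4) carried an age label of 5 weeks. WT mice given PBS (n = 3), dyW mice given PBS (n = 3), WT mice given TD139 (n = 2) and dyW mice given TD139 (n = 3) carried an age label of 3 weeks, although the protocol of all mice places collection at 5 weeks. TD139 is an inhibitor of galectin-3, and its dose and schedule are not given in the sources used here. Both sexes were present in every group.

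A muscle fibre contracts when an action potential, carried by the sodium channel Nav1.4 (Scn4a), runs along its membrane and into the transverse tubules. There the dihydropyridine receptor, a calcium channel of several subunits with Cacna1s as its pore, senses the voltage and opens the calcium release channel of the sarcoplasmic reticulum. The chloride channel ClC-1 (Clcn1) and several potassium channels return the membrane to rest, and loss of ClC-1 is the textbook cause of myotonia. Immature and denervated fibres are known to use other channels, among them small-conductance calcium-activated potassium channels, while macrophages, nerve sheath and vessel wall bring channels of their own into a piece of whole muscle.

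Lama2 itself was at 2.18 to 5.02 RPKM (reads per kilobase of exon, scaled to the mapped reads of the library) in the WT libraries and at 0.545 to 1.10 RPKM in the dyW libraries of all groups. Depth ran from 15814395 to 45249183 exon reads per library. The 10 fast fibre markers were high in every group. Several libraries stood apart from others of their group. In WT PBS replicate 1 the 7 slow fibre markers summed to 2130 RPKM against 13.5 and 12 in the other WT PBS mice, and the 6 Schwann cell markers to 589 against 47.8 and 32.2. In untreated dyW the slow fibre sum was 87.7, 293, 1770 and 2170 RPKM in replicates 1 to 4, and the sum of 4 adipocyte markers was 341, 309, 109 and 35.3. Main counts are also given without these libraries, settings added after seeing the data for the untreated mice: dyW replicates 3 and 4 are called the slow-marker-high pair, and dyW replicates 1 and 2 the adipocyte-marker-high pair.

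Promoter sequence is shown for 3 of the genes on which the results turn and which fell together in untreated dyW: Kcng4 (a silent subunit that modifies other voltage-gated potassium channels), Cacna2d1 (the alpha2delta subunit of the dihydropyridine receptor) and Clcn1. Each is the 250 bases before the annotated start (RefSeq, GRCm38.p6, the build called mm10), written 5′ to 3′ on the gene's strand and lying outside the gene's span in the deposited files. Capitals mark CAGCTG, the core of the E-box bound by myogenic factors, which reads the same on both strands.
Kcng4, chr8:119635681-119635930, minus strand: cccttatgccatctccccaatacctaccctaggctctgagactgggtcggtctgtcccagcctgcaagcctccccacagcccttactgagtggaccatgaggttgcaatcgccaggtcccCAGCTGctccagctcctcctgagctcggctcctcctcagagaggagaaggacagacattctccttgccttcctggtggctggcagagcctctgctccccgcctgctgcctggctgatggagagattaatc
Cacna2d1, chr5:15934441-15934690, plus strand: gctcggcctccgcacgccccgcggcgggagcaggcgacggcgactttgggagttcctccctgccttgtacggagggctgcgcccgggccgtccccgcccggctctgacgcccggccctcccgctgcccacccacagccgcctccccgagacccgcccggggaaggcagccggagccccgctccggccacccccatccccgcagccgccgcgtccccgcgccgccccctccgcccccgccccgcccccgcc
Clcn1, chr6:42286435-42286684, plus strand: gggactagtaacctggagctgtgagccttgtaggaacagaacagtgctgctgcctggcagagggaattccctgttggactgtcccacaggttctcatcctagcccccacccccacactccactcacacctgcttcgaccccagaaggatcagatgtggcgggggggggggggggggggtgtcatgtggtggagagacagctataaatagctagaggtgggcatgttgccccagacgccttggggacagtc
CAGCTG stood in the Kcng4 window and not in those of Cacna2d1 and Clcn1. It stood in 13.0% of all 32851 windows of this length, in 23.6% of the 144 windows matched to 105 channel genes, in 18.8% of the 32 windows of genes lower in untreated dyW and in 27.3% of the 22 windows of genes higher there. A match describes the letters of the window only.

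A few subunits of the fibre made up most of the channel RNA. In untreated WT muscle the summed level of the 142 genes was 944 to 1040 RPKM per library, and the 10 highest genes held 83.9% to 85.5% of it. Among the highest, in order of mean RPKM, were Cacna1s, Cacng1, Scn4b, Cacng6, Scn4a, Cacna2d1, Cacnb1, Kcnj11 and Clcn1. The spreads of Cacna1s (143 ± 8.17 RPKM, SD, n = 3) and Cacng1 (127 ± 12.8) met, as did those of Cacng6 (63.0 ± 4.58) and Scn4a (61.5 ± 12.5). Another 74 of the 142 genes had a mean under 0.1 RPKM, and 3 had no read in any library. In untreated dyW the summed level was 870 to 995 RPKM, Cacng1 stood at 251 ± 27.1 RPKM (n = 4), and 40 genes reached a mean of 1 RPKM against 33 in untreated WT. Whole muscle was sequenced, so fewer cells of a type and less RNA per cell cannot be told apart.

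The comparison of untreated dyW with untreated WT asks how channel RNA differs in diseased muscle. Of 142 genes, 86 passed the filter on low counts, 23 were higher and 30 lower in dyW at an adjusted p under 0.05 (edgeR quasi-likelihood test, Benjamini-Hochberg over 14846 genes), and 33 did not pass. Genes called higher were 26.7% of the channel genes tested against 24.7% of all genes, and genes called lower were 34.9% against 25.1% of all genes, so the higher share lay near the background and the lower share somewhat above it. By family, of 54 potassium channel genes tested 15 were higher and 17 lower, and of 8 sodium channel genes 4 were higher and 3 lower. Of 17 calcium channel genes tested 2 were higher and 7 lower, and of 7 chloride genes 2 were higher and 3 lower. In that order the shares higher were 27.8%, 50.0%, 11.8% and 28.6%, and the shares lower 31.5%, 37.5%, 41.2% and 42.9%. These calls rest on TMM scaling, which corrects for the composition of the libraries. On the deposited RPKM scale the median of all genes moved from 0.03 to 0.51 (limma on log2(RPKM + 0.1)), and the split became 36 higher and 20 lower, that is 64.3% higher against 43.4%. The share of all genes called on that scale is not given here. Of the 53 calls, 22 of the 23 higher and 20 of the 30 lower ones were kept on that scale. Without the slow-marker-high pair 19 genes were higher and 26 lower, and without the adipocyte-marker-high pair 22 and 30. For these leave-outs, here and in the lists below, the share of all genes called is not given.

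The channels that drive the adult fibre were lower. Of 14 genes in this list, 11 were called lower and none higher, with a median log2 fold change of -0.99 against 0.03 for all genes. On the RPKM scale 8 of the 14 were called lower and 1, Cacng1, higher, with a median of -0.44. Without the slow-marker-high pair 9 were called lower, and without the adipocyte-marker-high pair 10. The 10 fast fibre markers behaved alike, 8 being called lower with a median of -1.04, and their summed level was 80900 to 95300 RPKM in untreated WT and 53700 to 71400 in untreated dyW. Their part in the fall of the fibre channels was not tested.

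Clcn1, the chloride channel that sets the resting conductance of the fibre, was at 25.5, 34.0 and 29.9 RPKM in untreated WT replicates 1 to 3 and at 21.3, 14.1, 12.5 and 12.1 in untreated dyW replicates 1 to 4. All 4 dyW mice lay below the lowest WT mouse. The log2 fold change was -1.54 ± 0.26 (SE, adjusted p = 0.00157, edgeR).
Scn4a, the sodium channel of the action potential, was at 50.9, 75.4 and 58.1 RPKM in untreated WT and at 37.2, 24.8, 22.2 and 17.7 in untreated dyW, again without overlap. Its log2 fold change was -1.82 ± 0.29 (adjusted p = 0.00139, edgeR). The accessory subunit Scn4b was also lower, at 83.1 ± 3.52 RPKM in WT (n = 3) and 47.6 ± 8.42 in dyW (n = 4), a log2 fold change of -1.37 ± 0.16.

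The subunits of the dihydropyridine receptor moved unequally. Cacna2d1 was at 45.3, 50.1 and 52.9 RPKM in untreated WT and at 21.4, 19.6, 15.9 and 18.5 in untreated dyW. The highest dyW mouse was below the lowest WT mouse, and the log2 fold change was -1.94 ± 0.18 (adjusted p = 0.000195, edgeR). The pore Cacna1s was at 143 ± 8.17 RPKM in WT and 94.8 ± 22.2 in dyW (-1.13 ± 0.23, adjusted p = 0.00375, edgeR). A non-coding gene on the other strand overlaps 20% of the exonic bases of Cacna1s, and whether the counting used strand is not given in the sources used here. Cacng6 was lower as well (-1.03 ± 0.17). The gamma subunit Cacng1 was at 113, 137 and 131 RPKM in WT and at 263, 226, 232 and 283 in dyW, with no overlap on this scale. It missed the threshold after TMM scaling (0.43 ± 0.17, adjusted p = 0.0698, edgeR) and passed it on log2(RPKM + 0.1) (0.98 ± 0.14, adjusted p = 0.000797, limma). Cacnb1, the beta subunit, was called lower by 0.33 on the log2 scale with TMM but was 0.21 higher on the RPKM scale, so its direction depends on the scaling. On either scale Cacng1 and Cacna2d1 lay on opposite sides of the median of all genes.

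Several potassium channels fell too, among them some outside the fibre list. Kcng4 was at 7.92, 18.1 and 16.2 RPKM in untreated WT and at 1.79, 2.65, 2.69 and 3.06 in untreated dyW. It was the lowest fold change of any channel gene called, -3.05 ± 0.32 (adjusted p = 0.000255, edgeR), with a wide gap between the groups. Kcnma1, the large-conductance calcium-activated channel, fell by 2.02 ± 0.13 on the log2 scale. Kcnf1, another silent subunit, fell by 2.45 ± 0.57. Within the fibre list, Kcnc4, a fast-gating Kv3 channel, was called at -1.39 ± 0.29, the inward rectifier Kcnj12 at -1.47 ± 0.31 and Kcnj11, the pore of the ATP-sensitive channel, at -0.95 ± 0.14. Kcnj2, another inward rectifier, and the Kv3 channel Kcnc1 were not called (-0.50 ± 0.25 and -0.50 ± 0.22, adjusted p = 0.128 and 0.0895, edgeR). Of 6 broadly expressed chloride channels and transporters, 2 were higher and 2 lower. The endosomal transporter Clcn3 fell (3.34 ± 0.14 RPKM in WT, 1.73 ± 0.122 in dyW, -1.50 ± 0.13), as did Clcn4 (-0.65 ± 0.10), while Clcn2 (0.80 ± 0.19) and Clcn5 (0.42 ± 0.13) rose. Clcn7, the transporter of lysosomes, had a log2 fold change of 0.00 ± 0.12. On the RPKM scale 4 of the 6 were higher and 1, Clcn3, lower; without the slow-marker-high pair 1 was higher and 2 lower. Of 32 pump, triad and anchoring genes outside the 142, 18 were lower and 3 higher, with a median of -0.71, against 11 lower and 8 higher with a median of -0.17 on the RPKM scale and 14 lower and 3 higher without the slow-marker-high pair. Those lower included Ryr1, the calcium release channel (-1.45 ± 0.27), Jph2, which holds the triad together (-1.53 ± 0.15), and Stac3, which couples Cacna1s to Ryr1 (-1.39 ± 0.13).

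**Figure D1:**
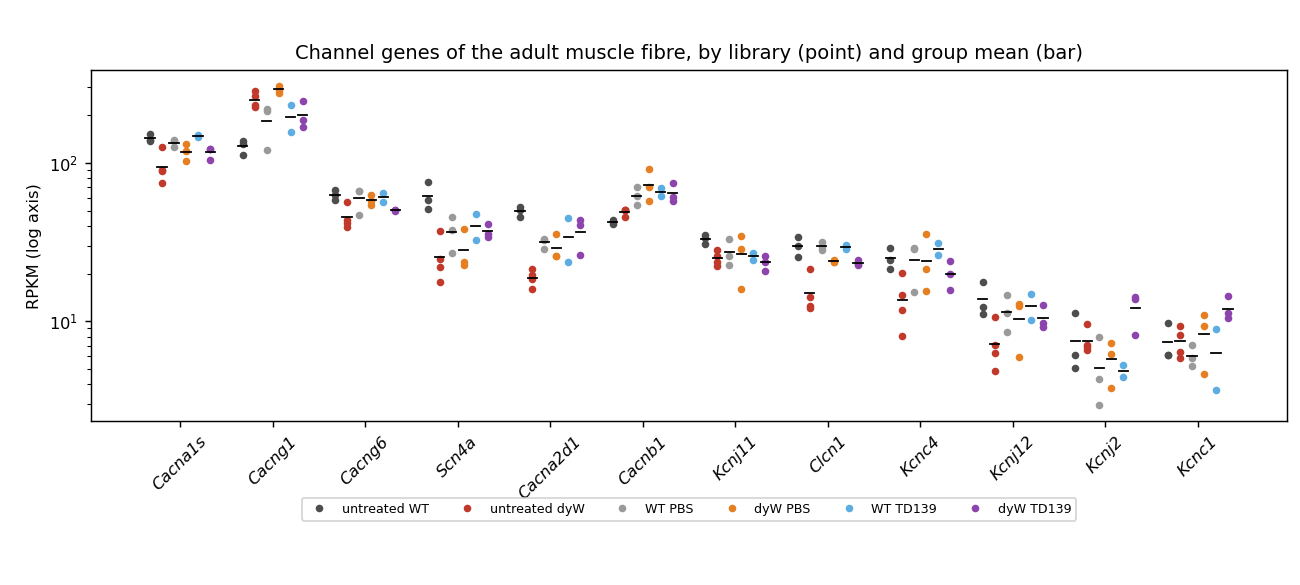
RPKM (log axis) of 12 of the 14 channel genes of the adult fibre, with a point per library and a bar at each group mean; groups are coloured and genes are ordered by their mean in untreated WT. Untreated dyW (red) lay below untreated WT (dark grey) for Scn4a, Cacna2d1 and Clcn1, and above it for Cacng1.

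Channels known from immature, cardiac or denervated fibres were called in both directions, more of them higher. Of 13 such genes 11 were tested, 6 were higher, 2 lower and 3 not called, with a median log2 fold change of 0.71. Without the slow-marker-high pair 5 were higher and 1 lower of 11 tested, and without the adipocyte-marker-high pair 7 were higher and 1 lower of 12 tested. Kcnn3, the SK3 potassium channel that appears in denervated muscle, was at 0.328 ± 0.128 RPKM in WT and 1.36 ± 0.111 in dyW (1.53 ± 0.22). Its relative Kcnn2 moved the opposite way (-1.58 ± 0.28). The calcium channels Cacna1d (2.64 ± 0.45) and Cacna1h (0.71 ± 0.21) were higher, as was the accessory subunit Kcne1l, listed under an older symbol of Kcne5 (1.74 ± 0.44). The markers of regenerating fibres rose with them, 7 of 7 being called higher with a median of 4.6, and of 7 denervation markers 6 were higher and 1 lower. Chrng, Myog and Ncam1 stand in both marker lists, so these counts are not independent. The part of these markers in the results was not tested.

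Of 9 genes for channels of immune cells 8 were tested, 5 were called higher and none lower, with a median of 1.14. The count called higher was 3 without the slow-marker-high pair and 4 without the adipocyte-marker-high pair. Kcnn4, the intermediate-conductance channel of macrophages and lymphocytes, was at 0.139, 0.107 and 0.0780 RPKM in untreated WT and at 1.67, 0.995, 1.75 and 1.33 in untreated dyW. No values overlapped, and its log2 fold change of 3.19 ± 0.32 (adjusted p = 0.000214, edgeR) was the highest among the channel genes called. Kcnk13, a two-pore potassium channel of microglia and macrophages, was at 0.0931 to 0.163 RPKM in WT and 0.539 to 0.996 in dyW (2.01 ± 0.29). Kcnab2 (1.57 ± 0.28) and Kcnk6 (0.72 ± 0.19) were higher as well. The remaining call was Kcnj10 (1.63 ± 0.48), which also stands in the nerve and Schwann cell list and is counted there again. The lymphocyte potassium channel Kcna3 was too low to be tested. The 7 macrophage markers summed to 43.8 to 69.9 RPKM in untreated WT and 313 to 373 in untreated dyW, and their part in the rise was not tested.

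Nerve and Schwann cell channels were mostly too low to test. Of the 16 genes of this list, 7 were tested and 4 were higher, with a median of 0.71. Without the slow-marker-high pair 3 were higher, and without the adipocyte-marker-high pair 2 were higher and 1 lower. The 4 were Scn7a, the sodium-sensing channel of glia and other support cells (1.14 ± 0.19), Kcna6 (2.19 ± 0.28), Kcnj10 (1.63 ± 0.48) and Scn3a (0.71 ± 0.23). Kcnj10 rested on few reads, 6, 2 and 2 in untreated WT and 17, 21, 14 and 17 in untreated dyW. The calls of Kcnj10 and Scn3a were each lost in 4 of 16 alternatives. A gene on the other strand overlaps 39.6% of the exonic bases of Kcna6. All 6 Schwann cell markers were called higher, and their sum was 8.73 to 20 RPKM in untreated WT and 48.2 to 96.8 in untreated dyW. Their part was not tested. Among 9 vascular and smooth muscle genes 1 was higher, Kcne4, and 2 were lower, Kcnma1 and Cacna1c, the last with a sign that turned on the RPKM scale. Without the slow-marker-high pair 1 was higher and 1 lower, but Kcne4 was no longer called, so the higher one was another gene. Without the adipocyte-marker-high pair 2 were higher and 2 lower. Of 7 smooth muscle and pericyte markers 6 were higher and 1 lower. Their sum was 564 to 583 RPKM in untreated WT and 1350 to 1630 in untreated dyW. That list holds Des (desmin), which muscle fibres also make, so the sum is not one of the vessel wall alone. Of 5 endothelial markers 2 were higher and 0 lower, with a median of 0.10. The part of these markers was not tested.

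Among potassium channel auxiliary subunits, which tune the gating or traffic of the pore, 10 of 17 genes were tested, 5 were higher and 1, Kcnab1, lower (-1.74 ± 0.25). Without the slow-marker-high pair 9 were tested, 2 were higher and 2 lower, and without the adipocyte-marker-high pair 11 were tested, 5 were higher and 2 lower. Kcnab2, Kcne1l and Kcne4, called higher here, also stand in lists above. Of 14 two-pore potassium channels, which carry background currents, 6 were tested and 2 were higher, Kcnk13 and Kcnk6. Both were already counted among the immune cell channels, so the counts of these lists are not independent. Of 6 gamma subunits known from glutamate receptors of the brain 1 was tested, Cacng7, and it was called lower with TMM (-0.69 ± 0.16). On log2(RPKM + 0.1) Cacng7 was not called (-0.11 ± 0.14, adjusted p = 0.5, limma). Neither of the 2 kidney chloride channel genes was tested. Of other genes with a large change, Kcns3, a silent potassium channel subunit, was at 0.0874 ± 0.0449 RPKM in untreated WT and 0.662 ± 0.442 in untreated dyW (2.43 ± 0.64). The sodium channel beta subunit Scn3b was at 0.454 ± 0.191 and 1.28 ± 0.455 RPKM (0.99 ± 0.34). Its call was lost in 6 of 16 alternatives, among them the sex term and the adipocyte-marker-high pair left out. The calcium channel subunit Cacna2d4 went down, from 0.667 ± 0.391 to 0.240 ± 0.0982 RPKM (-2.06 ± 0.50).

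Kcnk3, an acid-sensitive two-pore channel, varied widely between mice of a group. It was at 1.24, 0.0993 and 0.317 RPKM in untreated WT and at 8.69, 19.4, 0.779 and 0.316 in untreated dyW. Replicates 1 and 2 of dyW were high and replicates 3 and 4 lay within the WT range. Kcnk3 was not called in the main fit (3.28 ± 1.40, adjusted p = 0.0811, edgeR) but was called higher in 3 of 16 alternatives. The adipocyte marker sum was 341 and 309 in the first pair and 109 and 35.3 in the second. Ucp1, the uncoupling protein of brown fat, chosen after its values were seen, was at 66.1, 638, 1.01 and 0.865 RPKM in the same 4 mice and at 57.7 in untreated WT replicate 1, the highest WT mouse for Kcnk3. Without replicates 3 and 4 the log2 fold change was 4.25, and without replicates 1 and 2 it was -0.54. The part of fat in the Kcnk3 values was not tested.

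**Figure D2:**
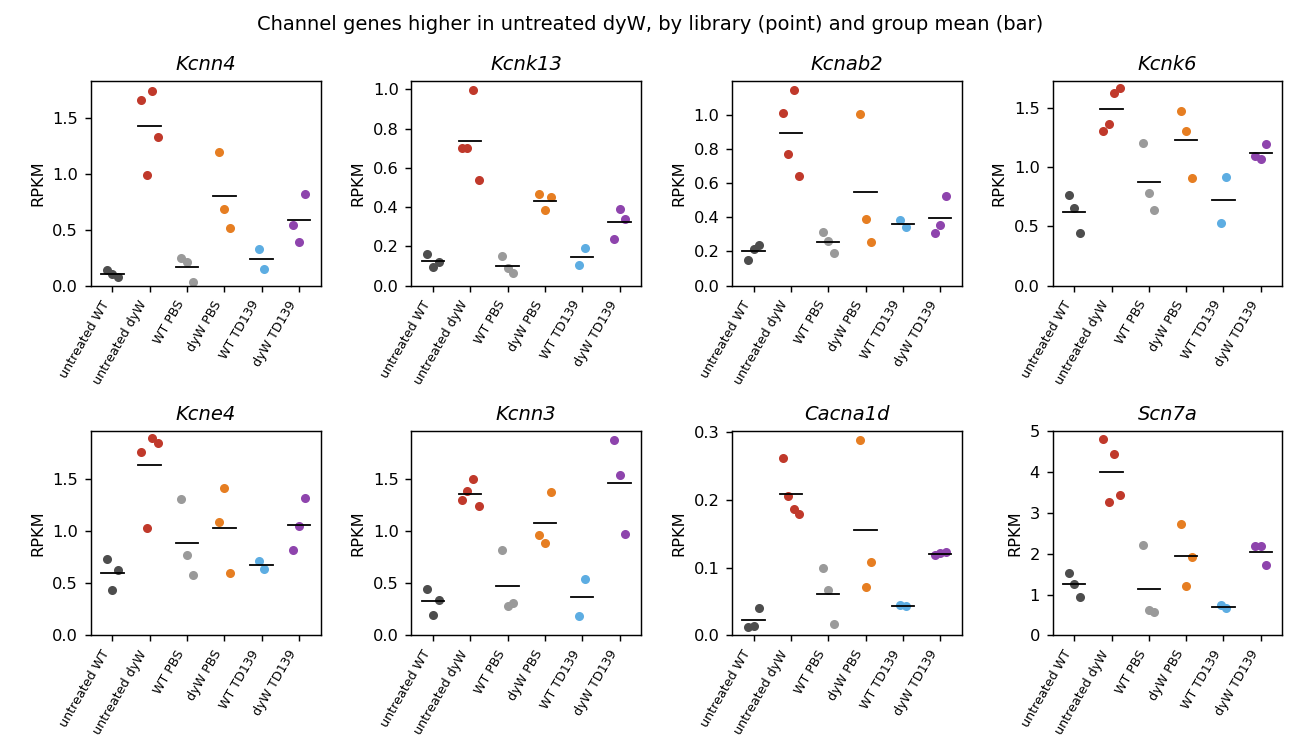
RPKM of 8 channel genes called higher in untreated dyW, by group, with a point per library and a bar at the group mean; each axis starts at 0. The 4 untreated dyW mice lay above the untreated WT mice for all 8 genes, and the dyW PBS mice lay above the WT PBS mice without overlap for Kcnk13, Kcnn4 and Kcnn3.

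The comparison of dyW PBS with WT PBS, in mice that share no library with the untreated ones, gave fewer calls. Of 97 genes tested, 1 was higher and 2 were lower, where 2.4% of all genes were called higher and 0.28% lower. Kcnk13 was at 0.151, 0.0915 and 0.0654 RPKM in WT PBS replicates 1 to 3 and at 0.465, 0.384 and 0.453 in dyW PBS replicates 1 to 3. The groups did not overlap (1.80 ± 0.39, adjusted p = 0.0319, edgeR). Kcng4 was at 2.14, 2.98 and 2.85 RPKM in WT PBS and at 1.70, 2.05 and 1.55 in dyW PBS (-0.89 ± 0.21, adjusted p = 0.0475, edgeR). Kcnk13 and Kcng4 were both called in the same direction in untreated mice. Both calls were lost with the 2 groups fitted alone, and that of Kcng4 on the RPKM scale. They also depended on single libraries: neither was called without WT PBS replicate 2 or 3, or without any 1 of the 3 dyW PBS libraries. Without dyW PBS replicate 3, Scn4a was the only gene called (-0.99 ± 0.24).

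Without WT PBS replicate 1, the library high in slow fibre and Schwann cell markers, 2 genes were higher and 5 lower. Scn7a (1.30 ± 0.27) joined Kcnk13, and Clcn1 (-0.74 ± 0.15), Cacng6 (-0.58 ± 0.14) and Kcns1 (-1.53 ± 0.34) joined those already called lower. The share of all genes called without that library is not given here. With that library, Clcn1 was at 28.2, 31.8 and 29.5 RPKM in WT PBS and at 24.2, 23.6 and 23.8 in dyW PBS, which did not overlap but missed the threshold (-0.62 ± 0.16, adjusted p = 0.0605, edgeR). Kcnn4 was at 0.247, 0.217 and 0.0343 RPKM in WT PBS and at 1.20, 0.692 and 0.514 in dyW PBS, also without overlap (1.95 ± 0.57, adjusted p = 0.104, edgeR). The voltage-gated potassium channels of axons were highest in WT PBS replicate 1 of all 18 libraries, with Kcna1 at 1.48 RPKM and Kcna2 at 1.59. Of the 53 genes called in untreated mice, 45 had the same sign in PBS mice (84.9%), against 88.0% of all genes called there. Among genes called higher it was 17 of 23 (73.9%) against 86.3% of all genes, and among genes called lower 28 of 30 (93.3%) against 89.5%; the difference between these shares was not tested. Of the 14 fibre channel genes, none was called in PBS mice, and their median was -0.34.

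**Figure D3:**
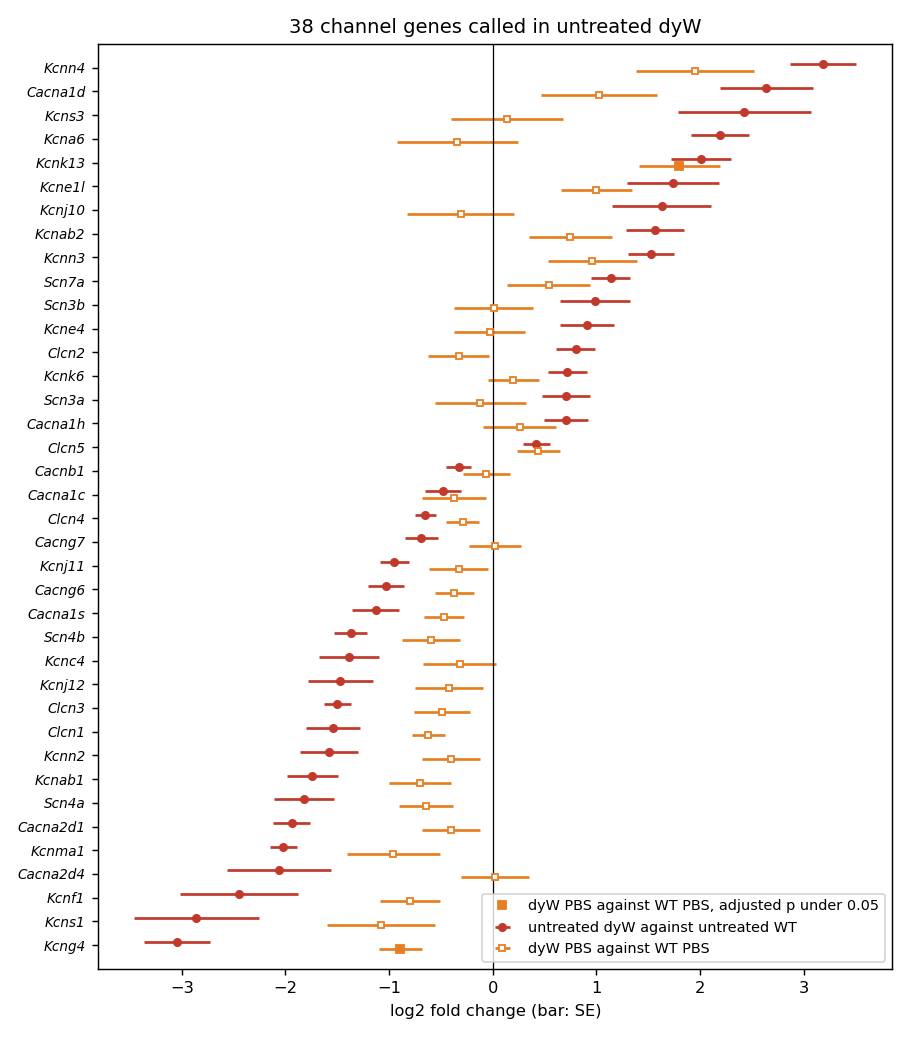
Log2 fold change with its SE (bars) of 38 of the 53 channel genes called in untreated dyW against untreated WT, those named in the text (red circles), beside dyW PBS against WT PBS (orange squares, filled where the adjusted p was under 0.05). The order runs from Kcng4 at -3.05 to Kcnn4 at 3.19, and most PBS values lay nearer to 0.

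The genotype effect itself differed between the cohorts for 2 channel genes, both less lowered in PBS mice, out of 98 tested, where 1.2% of all genes differed in this direction and 0.526% in the other. For Kcng4 the difference was 2.17 ± 0.39 on the log2 scale (adjusted p = 0.027, edgeR) and for Cacna2d1 1.55 ± 0.35 (adjusted p = 0.0426, edgeR). Neither was called without WT PBS replicate 1, dyW PBS replicate 2 or 3, untreated WT replicate 2 or 3, or untreated dyW replicate 3 or 4, each left out in turn. Of 20 alternatives, 7 lost the Kcng4 call and 11 lost that of Cacna2d1. Both RPKM scales of limma lost Cacna2d1. The count rose to 5 without untreated dyW replicate 1, with Clcn1 (1.12 ± 0.23), Scn4a (1.41 ± 0.37) and Kcnf1 (2.26 ± 0.54) joining them. How the share of all genes called moved in that setting is not given here. The WT levels differed as well: Kcng4 was at 14.1 ± 5.41 RPKM in untreated WT and 2.66 ± 0.451 in WT PBS, and Cacna2d1 at 49.4 ± 3.88 and 31.5 ± 2.60. Kcne1l, not called for this difference, was at 1.85 ± 1.17 RPKM in untreated WT, 8.95 ± 1.94 in untreated dyW, 19.8 ± 4.64 in WT PBS and 47.8 ± 11.8 in dyW PBS. Cohort, age label and injection cannot be told apart here.

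**Figure D4:**
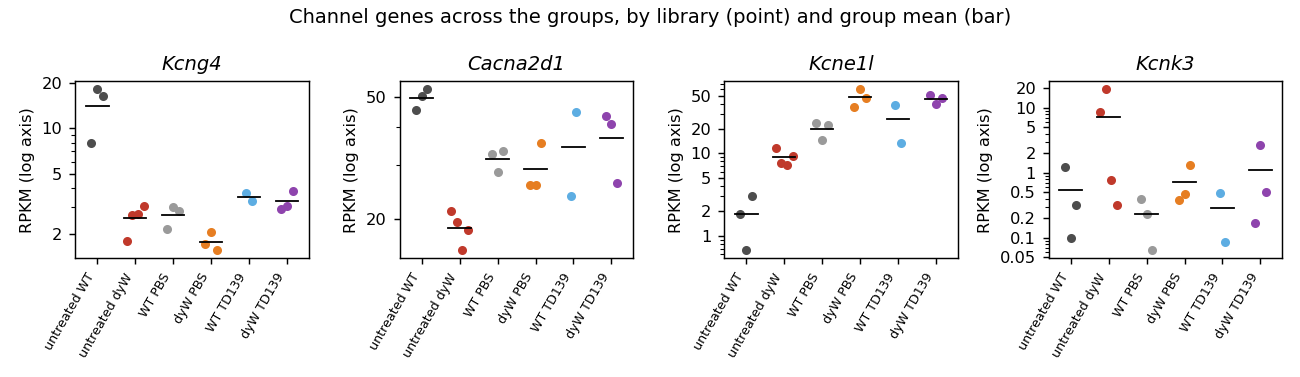
RPKM (log axes) of Kcng4, Cacna2d1, Kcne1l and Kcnk3 in the 6 groups, with a point per library and a bar at the group mean. Untreated WT stood above the other groups for Kcng4 and Cacna2d1 and below them for Kcne1l, and Kcnk3 was high in 2 of the 4 untreated dyW mice.

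TD139 gave no call among the channel genes. In dyW mice, TD139 against PBS called 0 of 97 channel genes and 0% of all genes with edgeR, and DESeq2 and limma also called 0 channel genes. An unadjusted edgeR p under 0.05 was found for 6 of the 97 channel genes and for 583 of all 15331 genes. Kcng4 was at 2.92, 3.04 and 3.85 RPKM in dyW TD139 against 1.70, 2.05 and 1.55 in dyW PBS. Those groups did not overlap, and the log2 fold change was 0.92 ± 0.21 (adjusted p = 0.888, edgeR). Kcnj2 was at 14.1, 13.9 and 8.21 RPKM in dyW TD139 against 6.22, 3.81 and 7.34 in dyW PBS, without overlap (1.11 ± 0.33, adjusted p = 0.888, edgeR). The fibre channels had a median of 0.01, with Clcn1 at 0.01 ± 0.16, and Kcnk13 had -0.38 ± 0.36. In WT mice, where TD139 had 2 libraries, 0 of 97 were called and 0% of all genes, and DESeq2 and limma called 0 channel genes. There 2 channel genes and 304 of all 15331 genes had an unadjusted edgeR p under 0.05. Tested as an interaction, the response to TD139 in dyW minus that in WT also called 0 of 97 and 0% of all genes. DESeq2 and limma called 0 channel genes. For this interaction 2 channel genes and 294 of all 15331 genes had an unadjusted edgeR p under 0.05.

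Between dyW and WT mice that both received TD139, edgeR called 0 of 97 channel genes, where 0.757% of all genes were higher and 0.287% lower. An unadjusted edgeR p under 0.05 was found for 21 of the 97 channel genes and for 2430 of all 15331 genes. DESeq2 called 1 higher and 7 lower, and limma 1 higher on log2(RPKM + 0.1). The share of all genes called in those settings is not given here. Clcn1 was at 30.1 and 28.8 RPKM in WT TD139 and at 24.4, 22.6 and 22.9 in dyW TD139 (-0.68 ± 0.17, adjusted p = 0.0886, edgeR). The groups did not overlap.

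In the authors' deposited table of dyW against WT, 24 of the 136 channel genes with a value were higher and 28 lower at an FDR-adjusted p under 0.05. Of the 53 genes called here in untreated mice, 48 were called there with the same sign and none had the opposite sign. Which libraries that table used is not given in the sources used here. In the authors' deposited table of dyW TD139 against dyW PBS, 2 of 133 channel genes were higher and 0 lower. They were Kcnj2 (log2 fold change 1.11, FDR-adjusted p = 0.00614 in the authors' deposited table) and Kcnma1 (1.05, FDR-adjusted p = 0.0382 in the authors' deposited table), both named after their values were seen. With edgeR the same fold changes, 1.11 and 1.05, had an adjusted p of 0.888. For both deposited tables the share of all genes called is not given here, so the counts cannot be set against a background.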

How the data were processed

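Per the labels, quadriceps RNA was sequenced from an Illumina Stranded mRNA preparation; per the submitters' processing notes the build is mm10. Aligner and counting tool are not given in the sources used here. Per the file headers, the authors deposited total and unique exon read counts, an exon length and an RPKM per gene for 48709 genes, of which 17044 have an exon length of 0. The authors also deposited comparison tables holding a log2 fold change and an FDR-adjusted p-value. Depth was 15814395 to 45249183 exon reads; lower depth widens the error of low genes. Libraries were grouped by their labels. Each carries its own animal number, so replicates are taken as separate mice.

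Total exon read counts of all genes with an exon length above 0 entered edgeR 4.0.16, run in R 4.3.3 (TMM, filterByExpr with a minimum count of 10 and a minimum total of 15, quasi-likelihood F-test, Benjamini-Hochberg, adjusted p under 0.05), and only channel genes are printed. The untreated mice were fitted alone, the PBS and TD139 mice together as 4 groups, and the difference between cohorts on all 18 libraries. SE of an edgeR log2 fold change is its absolute value divided by the square root of the F statistic, so it derives from the test. SE of a limma value comes from the limma fit. Levels are deposited RPKM. The test was tried on simulated data. The settings varied were the tool (DESeq2 1.42.0), RLE scaling, dropping the filter, limma 3.58.1 on log2(RPKM + 0.1) and log2(RPKM + 1), unique reads, a sex term, 2 groups fitted alone, a fold cutoff and leaving out libraries. Named genes are the members of 10 role lists, the members called in PBS or TD139 mice or in a difference, and up to 12 per direction with the largest change in untreated mice at 0.5 RPKM or more in the higher group. Members, lists and naming rule were chosen with earlier results of these data known. Scn2a is listed as Scn2a1 and falls outside the symbol rule. Some channel genes are not reported here by name; they remain in all counts.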

Additional observations from a re-analysis of the deposited data

Results flagged for a closer look

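The genotype effect differed between PBS and untreated mice by 2.17 on the log2 scale for Kcng4 and by 1.55 for Cacna2d1, tested as an interaction with edgeR. The Kcng4 call was lost in 7 of 20 alternatives and the Cacna2d1 call in 11 of 20. Among the 4 untreated dyW mice, 1 library lay far from the other 3 for 5 of the 65 channel genes examined; chance gives about 1 in 20. Cacnb1 was at 45.4 RPKM in replicate 2 against 50.1 to 50.7 in the others. Kcne4 was at 1.03 RPKM in replicate 2 against 1.75 to 1.89. Cacng7 was at 3.61 RPKM in replicate 1 against 3.95 to 4.01, Kcnj2 at 9.62 against 6.58 to 7.10, and Scn3b at 1.96 against 0.998 to 1.15.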

How the results depend on the processing

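In untreated mice, 32 of the 53 calls (12 higher, 20 lower) held in all 16 alternatives. The genes called higher became 36 with limma on log2(RPKM + 0.1), and leaving out 1 library gave 17 to 23 higher and 25 to 28 lower. On the RPKM scales of limma the sign turned for Cacna1c (0.05 and 0.02 with pseudocounts 0.1 and 1), Cacnb1 (0.21 in both) and Kcnq5 (0.05 and 0.02); the cause was not tested. The calls without the 2 untreated dyW libraries highest in slow fibre markers (19 higher, 26 lower) and without the 2 highest in adipocyte markers (22 higher, 30 lower) were added after seeing the data. In PBS mice, the count called higher was 2 with DESeq2, 3 and 2 with limma at pseudocounts 0.1 and 1, and 0 with the 2 groups fitted alone; the count called lower was 4, 0, 0 and 0 in the same settings and 1 with the sex term. Leaving out 1 library gave 0 to 2 higher and 0 to 5 lower. Between TD139 mice, DESeq2 called 1 higher and 7 lower, limma at 0.1 called 1 higher, and RLE, no filter and unique reads each called 2 lower. For the difference between cohorts, limma called 1 higher at both pseudocounts, Kcng4 being kept and Cacna2d1 lost. DESeq2 called 5 lower, and leaving out 1 library gave 0 to 5 higher and 0 to 3 lower. For the alternatives in this paragraph the share of all genes called is not given. No channel gene was called for TD139 against PBS in either genotype, or for their difference, under any alternative run. No paired analysis was possible because each library carries its own animal number and replicate numbers were given in accession order.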
